A study of Macaca mulatta with 6 samples.

Results

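The genes described here carry symbols that begin with SOX, GATA, TBX or KLF and a digit, or with FOX, a letter and a digit. GATAD and FOXRED genes were left out. By this rule 72 of the 17795 genes listed were members, namely 33 FOX, 16 KLF, 9 SOX, 8 TBX and 6 GATA genes. FOXL2NB, a neighbour of FOXL2, shares the letters of the family but is no forkhead factor. SOX8, SOX9 and FOXR1 were not analysed here.

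The libraries are bulk RNA sequencing of testicular cells of the rhesus monkey (Macaca mulatta), grown as spermatogonial stem cells (SSCs) in droplets of a basement membrane hydrogel. Culture was with human PDGF for 3 libraries (SSC PDGF+) and without it for 3 (SSC PDGF-), and the comparison asks which genes differ with PDGF. The medium described for SSC culture otherwise held fetal calf serum, GDNF, EGF, bFGF, LIF, Wnt3a and melatonin, and no separate recipe for SSC PDGF- is given in the sources used here. Replicate 1 of each group is labelled batch 1, and replicates 2 and 3 are labelled batch 2. The labels give the tissue as testis. Age, number of animals and days in culture of these libraries are not given in the sources used here. Nothing says that the replicates were separate cultures, so p-values measure the spread between these libraries, which may be technical.

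All 5 families encode transcription factors, each defined by its DNA-binding domain. SOX proteins carry an HMG box, FOX proteins a forkhead domain, TBX proteins a T-box, and GATA and KLF proteins zinc fingers. In the testis, SOX9, GATA4 and GATA1 are known from Sertoli cells, GATA4 and GATA6 also from Leydig cells, and SOX30 and FOXJ1 from germ cells after meiosis, while TBX3, FOXC1 and FOXS1 are known from mesenchymal and perivascular cells. PDGF receptors are tyrosine kinases of such stromal cells and signal through PI3K and AKT, and AKT phosphorylates FOXO proteins and keeps them out of the nucleus. This control acts on FOXO protein, whereas the libraries measure RNA only.

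Library totals were 13095468 to 14102698 counts in SSC PDGF+ and 10593808 to 11605912 in SSC PDGF-. Defining germ cell markers were low. DDX4, an RNA helicase of germ cells, had 0.15 to 0.608 CPM (counts scaled to library size) in SSC PDGF+ and 1.27 to 3.64 CPM in SSC PDGF-. GFRA1, a marker of undifferentiated SSCs in the paper, had 0 to 0.203 CPM and 0.192 to 0.739 CPM. STRA8, which the paper uses for differentiated spermatogonia, was at 0 in all 6 libraries. Over the 9 germ cell markers with a row, the summed level was 370 to 420 CPM in SSC PDGF+ and 325 to 382 CPM in SSC PDGF-. Most of it came from UCHL1 and ID4, which other cells also express. ID4, likewise a marker of undifferentiated SSCs in the paper, had 127 to 135 CPM and 148 to 177 CPM. The listed germ cell markers UTF1, KIT and SYCP3 had no row. The 9 stromal fibroblast markers with a row summed to 14981 to 20277 CPM and 17584 to 19765 CPM. The 5 macrophage markers with a row summed to 17.05 to 19.5 CPM and 11.6 to 18.4 CPM, with PTPRC at 0. The levels of DDX4 and GFRA1 go against the label SSC, while that of ID4 does not. For the cultured SSCs the paper also reports SSEA4 staining of colonies, and higher stemness scores and U3 genes with PDGF. The label is kept below as the name of the libraries.

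Levels per kilobase of exon (RPKM), which allow genes to be compared, were highest for TBX3 in SSC PDGF+ and for KLF13, a broadly expressed repressor, in SSC PDGF-. KLF13 had a mean of 36.9 RPKM in SSC PDGF+ and 35.9 RPKM in SSC PDGF-. TBX3 had 46.9 RPKM and 12.9 RPKM, the highest mean of any tested member in SSC PDGF+. GATA4, KLF6, KLF10 and TBX2 also stood high, with means of 23.5 to 33.2 RPKM in both groups, as did GATA2 (30.8 RPKM) and FOXS1 (30.3 RPKM) in SSC PDGF+ and FOXO1 (26.6 RPKM) in SSC PDGF-. At the other end, SOX30 had 0.0806 RPKM in SSC PDGF+ and FOXP3 had 0.134 RPKM in SSC PDGF-. The most abundant members thus included stromal, Sertoli and Leydig, and signal-responsive genes, and no germ cell gene of the list stood above 13.3 RPKM.

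**Figure D1:**
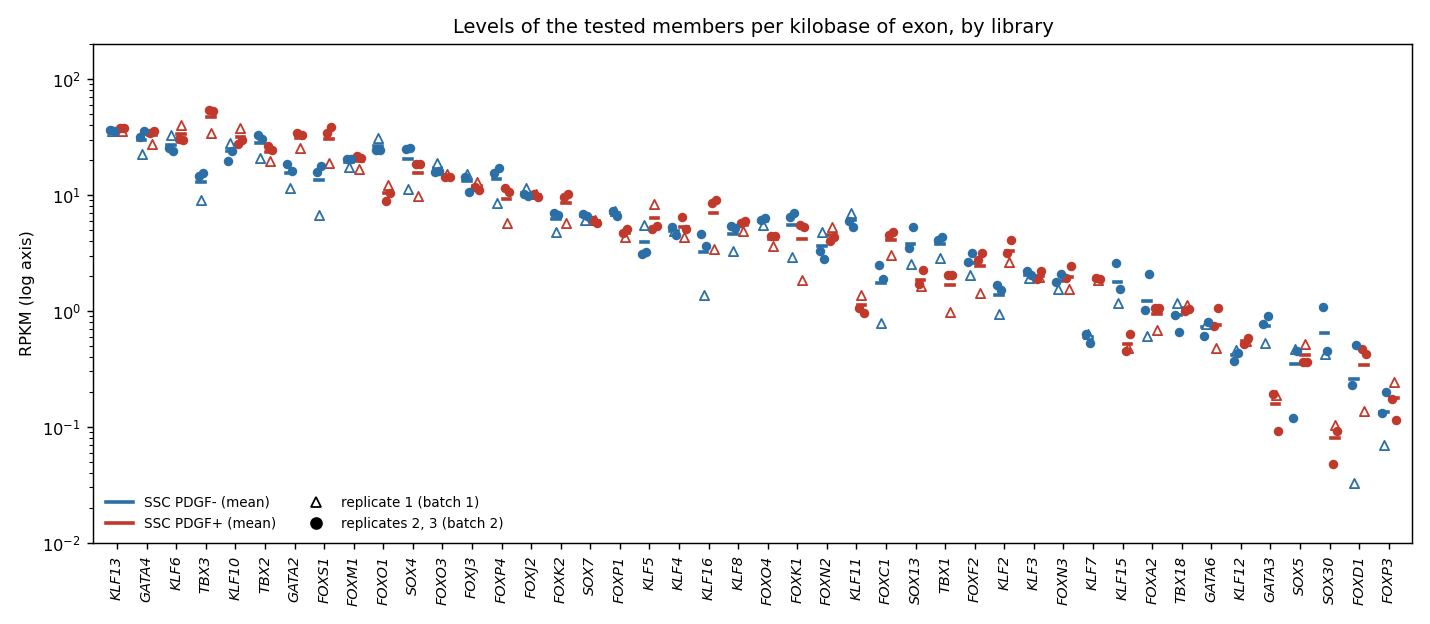
Level of each of the 44 tested members per kilobase of exon (RPKM, log axis) in every library, ordered by level, with bars at the group means of SSC PDGF- (blue) and SSC PDGF+ (red), triangles for replicate 1 (batch 1) and circles for replicates 2 and 3 (batch 2). KLF13 lies together in both groups near 36 RPKM, while TBX3, FOXO1, KLF11 and SOX30 show separate groups.

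Of the 72 members, 44 passed the filter on low counts and were tested. An edgeR test over all 11539 genes that passed called 12 of them at an adjusted p under 0.05, against 18.3% of all genes tested. The 4 that rose in SSC PDGF+ were TBX3, KLF7, KLF2 and GATA2, where 7.61% of all genes rose. The 8 that fell were SOX30, KLF11, GATA3, KLF15, FOXO1, TBX1, SOX13 and FOXP1, where 10.7% of all genes fell. These shares also stand beside the counts by role and by gene list below. The median log2 fold change of the 44 was 0.04, beside 0.02 for all genes tested. The CPM of the groups did not overlap for 17 of the 44, all 12 called genes among them, and for 37.6% of all genes tested.

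The number of calls moved with single libraries and with the batches. The count of members higher in SSC PDGF+ was 2 when SSC PDGF+ replicate 2 or 3 was left out and 8 when replicate 1 of that group was. The count of lower members was 4 when SSC PDGF+ replicate 2 or 3 or SSC PDGF- replicate 3 was left out, and 5 when SSC PDGF+ replicate 1 or SSC PDGF- replicate 2 was. The shares over all genes in these fits were not worked out. TBX3, KLF7, FOXO1, KLF11 and KLF15 kept their calls whichever single library was left out. With the replicate number as a block, which takes out the difference between batches, 12 members were higher and 14 lower, 26 of 44, against 60.1% of all genes tested (31.1% higher and 29.0% lower). All 12 genes called without the block were called with it, in the same direction.

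**Figure D2:**
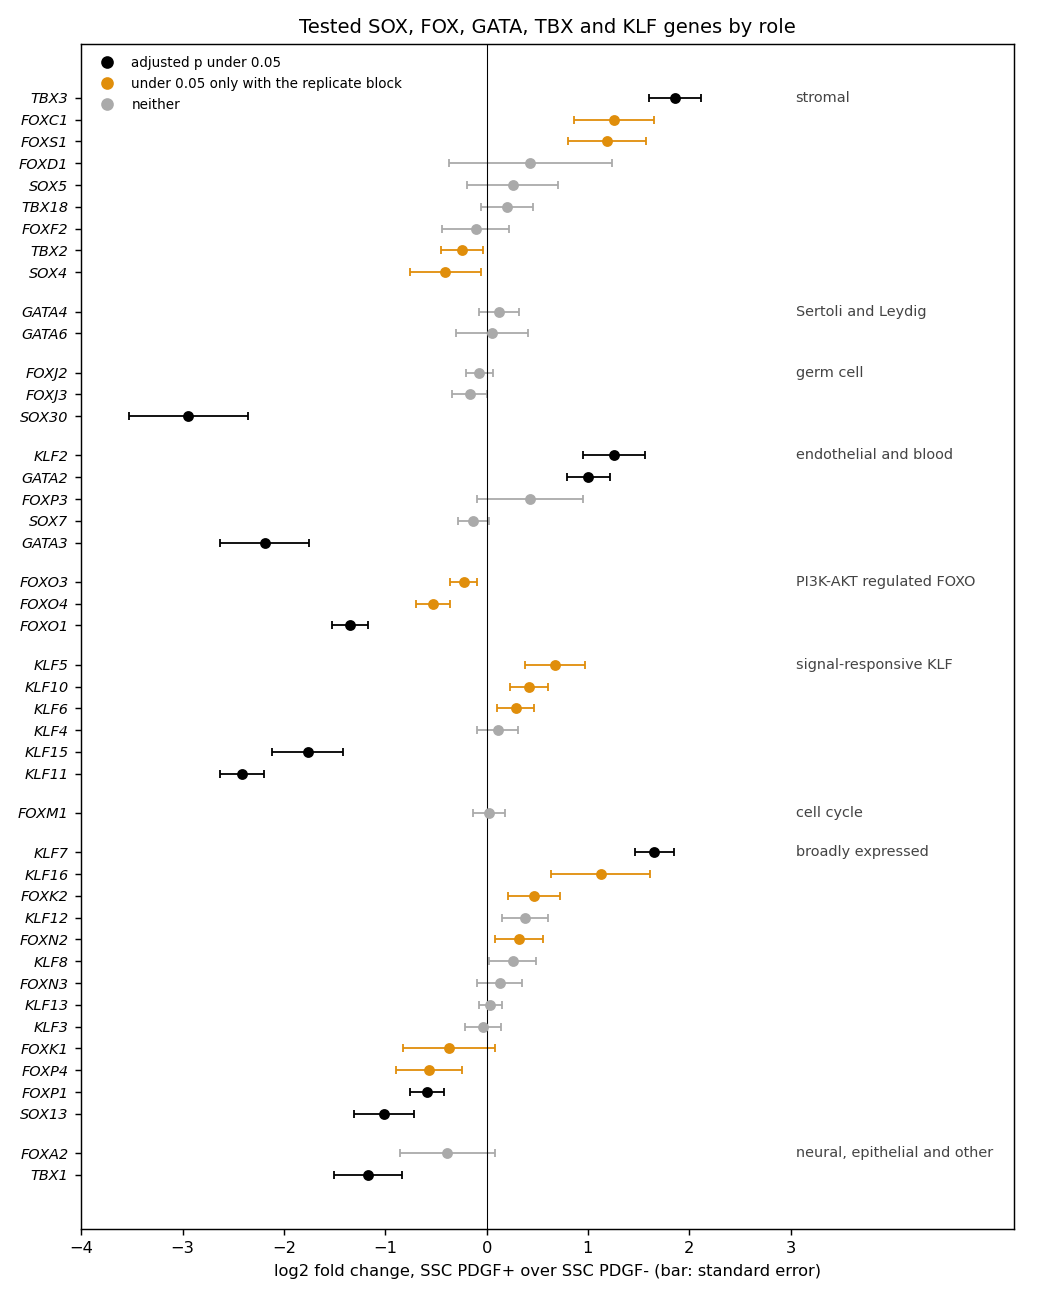
Log2 fold change of each tested member, SSC PDGF+ over SSC PDGF-, by role, with standard errors as bars, in black where the adjusted p was under 0.05, in orange where it was so only with the replicate block, and in grey otherwise. TBX3 (1.86) and KLF7 (1.66) lie farthest to the right, and SOX30 (-2.94) and KLF11 (-2.41) farthest to the left.

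Among the 15 stromal members, 9 were tested, 1 rose and none fell, where 7.61% of all genes tested rose and 10.7% fell. TBX3, a T-box repressor of limb, mammary and heart development, had 177, 275 and 270 CPM in SSC PDGF+ and 45.9, 74.2 and 79.2 CPM in SSC PDGF-. Every SSC PDGF+ library lay above every SSC PDGF- library, by a log2 fold change of 1.86 (SE 0.26, adjusted p = 0.0024). The log2 difference was 1.94 within batch 1 and 1.83 within batch 2. TBX2, its closest relative, did not follow it, with 66.7, 89.8 and 83.7 CPM in SSC PDGF+ and 70.9, 111 and 103 CPM in SSC PDGF-. Its groups overlapped, and its log2 fold change of -0.24 was called with the block (adjusted p = 0.0039) but not without it (adjusted p = 0.44), and not when GC content and length were corrected as well (adjusted p = 0.64).

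A pair of forkhead genes of mesenchyme and vessel wall stood on the higher side without passing the edgeR test. FOXC1, which acts in mesenchyme and in vessels, had 10.5, 15.6 and 16.5 CPM in SSC PDGF+ and 2.71, 8.62 and 6.57 CPM in SSC PDGF-. FOXS1, known from perivascular cells, had 24.6, 44.9 and 50.2 CPM against 8.87, 20.6 and 23.1 CPM. In both genes the groups did not overlap, and replicate 1 was the lowest library of each group. The log2 fold changes were 1.26 (SE 0.39) for FOXC1 and 1.19 (SE 0.39) for FOXS1, with adjusted p of 0.06 and 0.069. With the block, the adjusted p was 6.2e-06 and 3.9e-09, and with replicates 2 and 3 summed it was 0.19 and 0.23. DESeq2 called both (adjusted p of 0.0097 and 0.011), and limma-voom called FOXC1 (adjusted p = 0.048) but not FOXS1 (adjusted p = 0.07).

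SOX4, a progenitor factor of many tissues, had 56.8, 107 and 108 CPM in SSC PDGF+ and 66.1, 144 and 150 CPM in SSC PDGF-. Its groups overlapped, and its batches differed more than its groups. Its log2 fold change of -0.41 gave an adjusted p of 0.45 without the block and 1.8e-05 with it. The tested FOXF2, TBX18, SOX5 and FOXD1 had log2 fold changes of -0.11 to 0.43 and adjusted p of 0.62 to 0.85. TBX5 and TBX15, of heart and limb mesenchyme, were at 0 in all 6 libraries. Stromal markers did not move together: of 9 tested fibroblast markers NR2F2 rose, COL3A1 and PDGFRA fell, and of 9 tested peritubular myoid and pericyte markers RGS5 and MCAM rose while ACTA2 and DES fell. PDGFRA kept its call only without SSC PDGF+ replicate 1 (adjusted p = 0.026), and its adjusted p was 0.061 to 0.15 without any other single library. NR2F2 lost the call when replicate 2 or 3 of either group was left out (adjusted p of 0.056 to 0.071), and MCAM when SSC PDGF+ replicate 2 or 3 was (adjusted p = 0.051). The pericyte list summed to 653 to 911 CPM in SSC PDGF+ and 856 to 1163 CPM in SSC PDGF-, and the part of either marker list in TBX3, FOXC1 and FOXS1 was not tested.

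The Sertoli and Leydig members were GATA1, GATA4 and GATA6. GATA4, which with its cofactor ZFPM2 acts in gonad formation and in steroidogenic genes, had 107, 134 and 139 CPM in SSC PDGF+ and 88.0, 122 and 139 CPM in SSC PDGF-. The groups overlapped over most of their range, at a log2 fold change of 0.12 (SE 0.20, adjusted p = 0.69). The adjusted p was 0.053 with the block and 4.5e-05 with the block and a correction for GC content and length, at a log2 fold change of 0.35. GATA6, which shares steroidogenic targets with GATA4, had 1.89 to 4.13 CPM in SSC PDGF+ and 2.40 to 3.14 CPM in SSC PDGF-, at a log2 fold change of 0.05 (adjusted p = 0.93). Per kilobase, GATA4 stood at 32.6 and 29.9 RPKM and GATA6 at 0.755 and 0.726 RPKM. GATA1, the erythroid factor that Sertoli cells also express, was at 0 in all 6 libraries, which allows a level of up to 0.0408 CPM (3 counts over all libraries, for counting error only).

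The partners of these factors were listed as well. ZFPM2 had 23.4 to 28.8 CPM in SSC PDGF+ and 18.8 to 26.4 CPM in SSC PDGF- (log2 fold change 0.12, adjusted p = 0.68). Of 7 Sertoli partners, 4 were tested and edgeR called 0 of them, 1 having an unadjusted p under 0.05, while DESeq2 and limma-voom also called 0. NR5A1, the nuclear receptor that switches on steroidogenic genes with GATA4, had 96.6, 126 and 126 CPM in SSC PDGF+ and 130, 183 and 197 CPM in SSC PDGF-. Its groups did not overlap, and its log2 fold change of -0.55 gave an adjusted p of 0.087 without the block, 3.7e-08 with it and 0.39 with replicates 2 and 3 summed. DMRT1, which keeps Sertoli cells male, was at 0 in all libraries. The 7 Sertoli markers with a row summed to 23.7 to 30.6 CPM in SSC PDGF+ and 12.7 to 19.96 CPM in SSC PDGF-. WT1, 1 of 3 tested, had means of 2.13 and 2.07 CPM (log2 fold change 0.04, adjusted p = 0.95). Most of each sum came from GATM, the only 1 of the 3 that rose (means of 23.1 and 11.1 CPM). The rise was not called when SSC PDGF+ replicate 2 or SSC PDGF- replicate 2 or 3 was left out (adjusted p of 0.065 to 0.077). FATE1, too low to be tested, went the other way, with no count in SSC PDGF+ and 14, 17 and 2 counts in SSC PDGF-, and INHA had a log2 fold change of -0.24 (adjusted p = 0.8). The 8 Leydig markers summed to 266 to 333 CPM and 232 to 269 CPM, mostly from STAR, with CYP11A1, which makes pregnenolone, at 0. The symbol CYP11A1 had no match in the Mmul_10 annotation used for lengths, so its 0 may not measure the gene. Of 4 Leydig markers tested, 1 was called, IGF1, which fell. STAR had 257 to 322 CPM in SSC PDGF+ and 215 to 254 CPM in SSC PDGF-, without overlap. Its log2 fold change of 0.34 gave an adjusted p of 0.14 without the block and 6.1e-06 with it. DLK1 (1.09, adjusted p of 0.15 and 0.0035) and CYP17A1 (0.27, adjusted p of 0.72 and 0.44) were also above 0. SOX9, not analysed here, acts on cartilage genes. Of 7 tested genes of that list 4 fell (COL9A3, COL11A1, COL11A2 and COMP) and MATN3 rose, around a median log2 fold change of -1.23. Of all genes tested 10.7% fell and 7.61% rose, around a median of 0.02. COL9A3 and COMP passed the filter on low counts through SSC PDGF- alone, so only a fall could be called for them. The part of SOX9 in the differences of this list was not tested. MATN3 was called without SSC PDGF- replicate 1 (adjusted p = 0.042) and lost its call without any other single library (adjusted p of 0.059 to 0.14). Leaving out SSC PDGF+ replicate 2 or 3 or SSC PDGF- replicate 2 took the call from COL9A3 (adjusted p of 0.052 to 0.064), and leaving out SSC PDGF+ replicate 2 took it from COL11A1 (adjusted p = 0.052).

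Among the 6 germ cell members, 3 were tested and 1 fell, where 10.7% of all genes tested fell. SOX30, which switches on genes of the haploid phase of spermatogenesis, had 0.338, 0.156 and 0.301 CPM in SSC PDGF+ and 1.40, 3.54 and 1.47 CPM in SSC PDGF-. These levels rest on 5, 2 and 4 counts and on 17, 37 and 15 counts, and the groups did not overlap. SOX30 passed the filter on low counts through its SSC PDGF- libraries alone, so a fall was the only call open to it. The log2 fold change was -2.94 (SE 0.59, adjusted p = 0.011), with -1.95 within batch 1 and -3.18 within batch 2. Without SSC PDGF+ replicate 2 its adjusted p stood at the threshold (0.05) and the call was lost. In bulk libraries, fewer cells of a type and less RNA per cell cannot be told apart.

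FOXJ1, the master regulator of motile cilia and flagella, did not pass the filter. The SSC PDGF+ libraries held 2, 3 and 0 counts and the SSC PDGF- libraries 4, 12 and 9, that is 5 against 25. Per total count it was 6.18 times higher in SSC PDGF-, with an exact (Clopper-Pearson) 95% interval from 2.32 to 20.7 for the counting error alone. FOXJ2 and FOXJ3, known for roles in meiosis but also expressed elsewhere, were far more abundant, at 63.7 to 74.9 CPM and 60.0 to 85.2 CPM over all libraries. Their log2 fold changes were -0.07 (adjusted p = 0.75) and -0.17 (adjusted p = 0.53), with overlapping groups. SOX3, of the earliest spermatogonia, and KLF17 were at 0 in all libraries.

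Markers of spermatids were lower in SSC PDGF+, as SOX30 was. The 8 spermatid markers with a row summed to 108 to 151 CPM in SSC PDGF+ and 600 to 910 CPM in SSC PDGF-, and all 5 tested (TNP1, TNP2, ODF1, AKAP4 and ODF2) fell. TNP1, which replaces histones in spermatids, had a log2 fold change of -3.30 (adjusted p = 0.00024). Of the 4 tested germ cell markers, DDX4 fell (log2 fold change -2.72, adjusted p = 0.028) and UCHL1 rose (0.51, adjusted p = 0.032). Like SOX30, DDX4 passed the filter through SSC PDGF- alone, so only a fall could be called. DDX4 was not called when SSC PDGF+ replicate 2 or 3 or SSC PDGF- replicate 2 was left out (adjusted p of 0.096 to 0.1). The same held for UCHL1 with those libraries and with SSC PDGF- replicate 3 (adjusted p of 0.069 to 0.13). The part of these cells in the SOX30 difference was not tested.

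The 6 members of endothelial and blood cells gave 3 calls among 5 tested, beside 18.3% called of all genes tested. GATA2, a factor of blood progenitors, endothelium and other tissues, had 101, 136 and 133 CPM in SSC PDGF+ and 46.0, 73.7 and 64.6 CPM in SSC PDGF-. The groups stood apart, at a log2 fold change of 1.01 (SE 0.21, adjusted p = 0.013). The call was lost when SSC PDGF+ replicate 2 (adjusted p = 0.053) or 3 (adjusted p = 0.051) was left out. KLF2, the factor that endothelium raises under flow, had 5.27, 6.33 and 8.11 CPM against 1.89, 3.35 and 3.04 CPM, without overlap. Its log2 fold change was 1.26 (SE 0.31, adjusted p = 0.026), and this became 0.071 or 0.099 when SSC PDGF+ replicate 2 or 3 was left out, and 0.068 when SSC PDGF- replicate 3 was. Endothelial markers were low in both groups, the 7 with a row summing to 12.3 to 16.97 CPM in SSC PDGF+ and 11.6 to 16.3 CPM in SSC PDGF-. Of 5 tested, edgeR, DESeq2 and limma-voom each called 0, and 1 had an unadjusted p under 0.05. The part of endothelial cells in the GATA2 and KLF2 differences was not tested.

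GATA3, the factor of T cells and of several epithelia, went the other way. It had 0.608, 0.626 and 0.301 CPM in SSC PDGF+ and 1.72, 2.49 and 2.94 CPM in SSC PDGF-. The groups did not overlap at a log2 fold change of -2.19 (SE 0.44, adjusted p = 0.012), on 4 to 9 counts and 21 to 30 counts per library. GATA3, like SOX30, passed the filter through its SSC PDGF- libraries alone, so only a fall could be called. The call was lost without SSC PDGF+ replicate 3 (adjusted p = 0.056) and also without SSC PDGF- replicate 3, where the adjusted p rounds to the threshold (0.05). Of the T cell markers CD3E, CD3G and CD8A were at 0 in all libraries, and the 4 markers with a row summed to at most 0.235 CPM in SSC PDGF+ and 0.686 CPM in SSC PDGF-. The 7 rete or duct epithelial markers with a row summed to 37.6 to 54.9 CPM in SSC PDGF+ and 178 to 244 CPM in SSC PDGF-, and 4 of 6 tested (PAX8, KRT7, KRT18 and CDH1) fell. For KRT7 and CDH1, which also passed the filter through SSC PDGF- alone, a fall was the only open call. CDH1 was not called when SSC PDGF+ replicate 1 or SSC PDGF- replicate 2 or 3 was left out (adjusted p of 0.051 to 0.069). The part of epithelial cells in the GATA3 difference was not tested.

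SOX7, an endothelial factor, had the same counts as PINX1 in every library, and which of the pair was measured is unknown. Its log2 fold change was -0.13 (adjusted p = 0.59). FOXP3, which defines regulatory T cells, had 0.676 to 1.42 CPM in SSC PDGF+ and 0.411 to 1.18 CPM in SSC PDGF- on 5 to 21 counts per library. Its groups overlapped (log2 fold change 0.43, adjusted p = 0.6).

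The 3 tested FOXO factors, which PI3K and AKT signalling inactivates, were lower in every SSC PDGF+ library than in any SSC PDGF- library. Over all genes tested, the groups did not overlap for 37.6%. Without the block only FOXO1 was called, beside 18.3% of all genes tested. With the block all 3 were called, beside 60.1%. FOXO1, a driver of fasting, stress and cell cycle arrest genes, had 69.0, 50.1 and 58.9 CPM in SSC PDGF+ and 176, 139 and 138 CPM in SSC PDGF-. It fell by 1.35 on the log2 scale (SE 0.17, adjusted p = 0.0019), by 1.35 in each batch. FOXO4 had 13.3, 16.1 and 16.2 CPM against 20.3, 22.1 and 23.2 CPM. Its log2 fold change of -0.53 gave an adjusted p of 0.064 without the block, 0.00089 with it and 0.04 in DESeq2. FOXO3, a relative of FOXO1, had 110, 104 and 104 CPM against 138, 115 and 118 CPM, a log2 fold change of -0.23 with an adjusted p of 0.28 and, with the block, 0.0023. FOXO6 had 21 counts in SSC PDGF+ and 7 in SSC PDGF-, a ratio of 2.43 (exact 95% interval 0.995 to 6.76).

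A list of known FOXO target genes was read beside them. Of 20 genes, 15 had a row and 14 were tested, of which 1 rose and 3 fell without the block and 2 rose and 7 fell with it. The median log2 fold change was -0.32, with 12 of 14 values below 0, beside 0.02 and 5609 of 11539 for all genes tested. The shares called in all genes were 18.3% without the block and 60.1% with it, and 9 of 14 targets with the block is close to the latter. TRIM63, a muscle ubiquitin ligase, had 0.27, 0.86 and 0.451 CPM in SSC PDGF+ and 4.19, 4.69 and 4.90 CPM in SSC PDGF- (log2 fold change -3.12, SE 0.42, adjusted p = 0.0022). FBXO32, the other ligase of muscle atrophy, had 16.7, 15.2 and 18.4 CPM against 28.7, 38.9 and 32.0 CPM, a log2 fold change of -0.98 (adjusted p = 0.0077). In both the groups stood clear of each other. The SSC PDGF+ libraries of TRIM63, with 4, 11 and 6 counts, would not have passed the filter alone, so only a fall was open to it. PDK4, which restrains glucose oxidation, went in the opposite direction, with 60.3, 55.2 and 54.6 CPM against 35.2, 24.7 and 29.5 CPM (log2 fold change 0.93, adjusted p = 0.0084). PIK3IP1, an inhibitor of PI3K, fell by 1.32 on the log2 scale (adjusted p = 0.034). It was called without SSC PDGF- replicate 1 (adjusted p = 0.016), and its adjusted p was 0.062 to 0.12 without any other single library. With replicates 2 and 3 summed, TRIM63 was still called (adjusted p = 0.022), whereas FBXO32, PDK4 and PIK3IP1 were not (adjusted p of 0.11, 0.11 and 0.18). The insulin pathway genes IRS2 and INSR had log2 fold changes of -0.42 and -0.07, with adjusted p of 0.63 and 0.93. The parts of FOXO proteins, of PI3K and AKT signalling and of the mix of cells in these differences were not tested. The same holds for the lower RNA of the FOXO genes themselves.

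**Figure D3:**
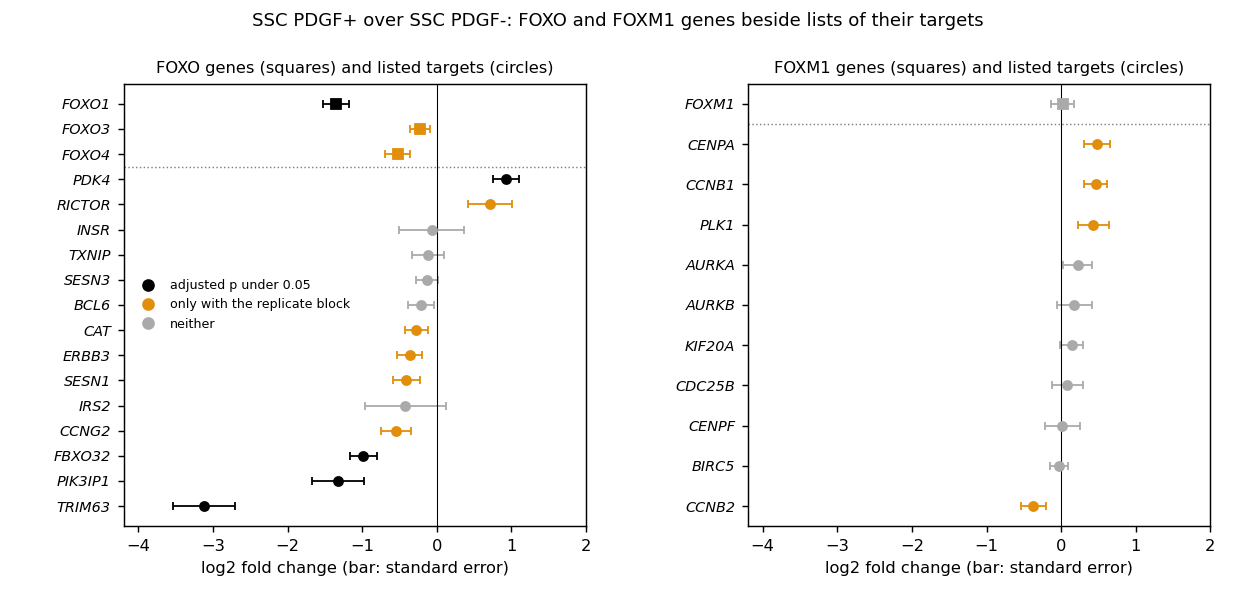
Log2 fold changes, SSC PDGF+ over SSC PDGF-, of the tested FOXO genes with 14 listed targets (left) and of FOXM1 with 10 listed targets (right), with standard errors as bars and the colours of the plot of all tested members. On the left 12 of the 14 targets lie below 0 and PDK4 (0.93) lies highest, and on the right 8 of the 10 targets lie above 0, by no more than 0.48.

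FOXM1, which drives the genes of mitosis, had 61.3, 79.8 and 76.7 CPM in SSC PDGF+ and 64.4, 75.1 and 75.1 CPM in SSC PDGF-. Its groups overlapped at a log2 fold change of 0.02 (SE 0.16, adjusted p = 0.94). Of its 10 listed targets, all tested, edgeR, DESeq2 and limma-voom each called 0, and 2 had an unadjusted p under 0.05. The median log2 fold change was 0.16. With the block CENPA, CCNB1 and PLK1 were higher and CCNB2 was lower, the first 3 at log2 fold changes of 0.43 to 0.48 and the last at -0.37 in the test without it.

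All 6 signal-responsive KLF members were tested, and 2 fell, where 10.7% of all genes tested fell. KLF11, a TGF-beta inducible repressor, had 6.68, 5.08 and 4.66 CPM in SSC PDGF+ and 33.4, 28.6 and 25.7 CPM in SSC PDGF-. It fell by 2.41 on the log2 scale (SE 0.21, adjusted p = 0.00033), the smallest adjusted p of the 44 tested members. The log2 difference was -2.32 within batch 1 and -2.47 within batch 2. KLF15, a glucocorticoid-responsive factor of metabolism, had 2.16, 2.03 and 2.85 CPM against 5.34, 11.7 and 7.05 CPM. Its groups did not overlap, at a log2 fold change of -1.77 (SE 0.35, adjusted p = 0.011). SSC PDGF- libraries spread more widely than SSC PDGF+ libraries for this gene, with means of 8.03 ± 3.28 CPM and 2.35 ± 0.442 CPM (SD, n = 3 each).

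The other 4 of this group, KLF4, KLF5, KLF6 and KLF10, include genes that growth factors induce. KLF6 had 163, 124 and 122 CPM in SSC PDGF+ and 134, 104 and 97.5 CPM in SSC PDGF-. KLF10, a TGF-beta inducible gene like KLF11, had 110, 81.2 and 86.8 CPM against 82.0, 57.4 and 69.4 CPM. In both, the highest SSC PDGF- library lay above the lowest SSC PDGF+ library, while within each batch SSC PDGF+ was higher. Their log2 fold changes of 0.29 and 0.42 gave adjusted p of 0.3 and 0.16 without the block and 0.00011 and 9.5e-06 with it. KLF5 had 34.4, 20.6 and 21.9 CPM against 22.5, 12.5 and 13.03 CPM (log2 fold change 0.68, adjusted p = 0.15, with the block 3.4e-05), but its counts equalled those of PIBF1 in every library and cannot be assigned to it. KLF4, a factor of epithelium, smooth muscle and pluripotency, had 13.4 to 20.3 CPM against 14.01 to 16.5 CPM, with overlap and a log2 fold change of 0.11 (adjusted p = 0.74).

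Of the 15 broadly expressed members, 13 were tested, 1 rose and 2 fell, where 7.61% of all genes tested rose and 10.7% fell. KLF7, known from neurons and adipocyte precursors, had 14.2, 14.6 and 14.3 CPM in SSC PDGF+ and 4.85, 4.79 and 4.02 CPM in SSC PDGF-. Relative to its mean it was the tightest of the called genes in SSC PDGF+, with a mean of 14.4 ± 0.226 CPM (SD, n = 3) beside 4.55 ± 0.463 CPM, and a log2 fold change of 1.66 (SE 0.19, adjusted p = 0.0011). FOXP1, a repressor of lymphocyte, heart and lung development, had 11.5, 12.4 and 13.6 CPM against 19.3, 19.5 and 17.5 CPM. The groups did not overlap and the log2 fold change was -0.59 (SE 0.17, adjusted p = 0.044), the smallest of the 12 called. Each single library left out took this call away, with adjusted p of 0.097, 0.15 and 0.1 for SSC PDGF+ replicates 1, 2 and 3 and of 0.056, 0.14 and 0.097 for SSC PDGF- replicates 1, 2 and 3. SOX13, an antagonist of TCF1 in T cell and neural development, had 6.68, 6.96 and 9.17 CPM against 10.3, 14.3 and 21.5 CPM, the widest spread lying in SSC PDGF-. Its log2 fold change was -1.01 (SE 0.29, adjusted p = 0.048) and limma-voom did not call it (adjusted p = 0.062). Leaving out SSC PDGF+ replicates 1, 2 and 3 in turn gave an adjusted p of 0.097, 0.14 and 0.074, and SSC PDGF- replicates 2 and 3 gave 0.11 and 0.16.

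Several broadly expressed genes passed only with the block. FOXK2 (log2 fold change 0.47, adjusted p 0.24 without the block and 4e-04 with it) and FOXN2 (0.32, 0.37 and 0.014) were higher, and FOXP4 (-0.57, 0.26 and 3.9e-06) and FOXK1 (-0.37, 0.61 and 0.035) lower. FOXN2 and FOXK1 were not called once GC content and length were corrected together with the block, at adjusted p of 0.97 and 0.72. KLF16 had 9.92, 24.8 and 25.99 CPM in SSC PDGF+ and 3.94, 13.4 and 10.6 CPM in SSC PDGF- (log2 fold change 1.12, adjusted p = 0.15, with the block 1.1e-06). In the Mmul_10 annotation 82.1% of its exon bases lie in exons of ABHD17A on the same strand, so that reads of the pair may not be separable. KLF13 stayed within a narrow range, with 243 to 256 CPM in SSC PDGF+ and 243 to 247 CPM in SSC PDGF- (log2 fold change 0.04, adjusted p = 0.85). The tested KLF3, KLF8, KLF12 and FOXN3 had log2 fold changes of -0.03 to 0.38 and adjusted p of 0.28 to 0.91.

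The 16 remaining members, of neural, epithelial and other tissues, held 2 tested genes. TBX1, of pharyngeal and inner ear epithelium and of muscle precursors, had 1.96, 4.07 and 4.06 CPM in SSC PDGF+ and 5.75, 8.24 and 8.62 CPM in SSC PDGF-. The groups did not overlap and replicate 1 was lowest in each, with a log2 fold change of -1.17 (SE 0.34, adjusted p = 0.046). The call was kept without SSC PDGF- replicate 1 (adjusted p = 0.023), and lost when any other library was left out, at 0.077, 0.081 and 0.081 for SSC PDGF+ replicates 1, 2 and 3 and 0.13 and 0.14 for SSC PDGF- replicates 2 and 3. FOXA2, of endoderm and floor plate, had 1.55 to 2.42 CPM against 1.40 to 4.70 CPM (log2 fold change -0.39, adjusted p = 0.6), with overlap. The epithelial marker values given beside GATA3 apply to TBX1 too, and their part in its difference was not tested.

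**Figure D4:**
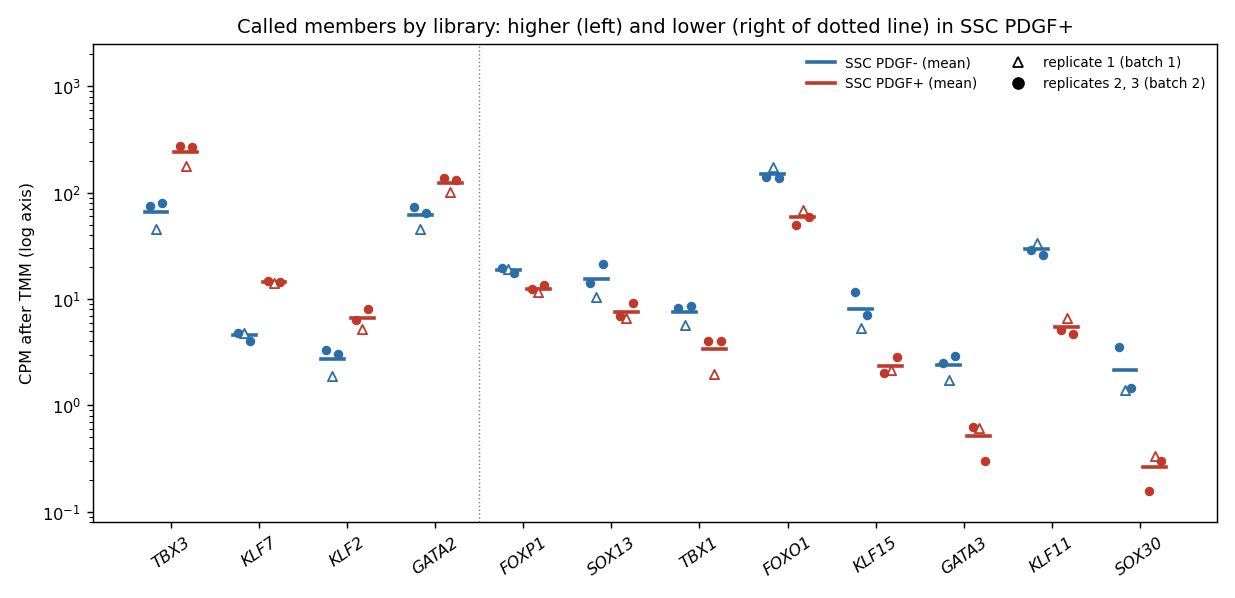
Level of the 12 called members in each library (CPM after TMM scaling, log axis), the 4 higher in SSC PDGF+ to the left of the dotted line and the 8 lower to the right, with bars at group means, triangles for replicate 1 (batch 1) and circles for replicates 2 and 3 (batch 2). No red point of any gene overlaps the range of the blue points, and the gap is narrowest for SOX13 (9.17 against 10.3 CPM).

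The 28 members that did not pass the filter included 12 at 0 in all 6 libraries and 11 with 1 to 20 counts in total. Those at 0 included GATA1, SOX3, KLF17, TBX5, TBX15, FOXB1, FOXB2, FOXE1, FOXI1, FOXI3 and FOXN1, most of these being factors of brain, thyroid, thymus, ear or limb. FOXD2, of mesoderm, had 1, 8 and 4 counts in SSC PDGF+ and none in SSC PDGF-, and was at least 3.51-fold higher against a floor of 3 counts over the group. TBX6, of paraxial mesoderm, had 2 counts against 11, a ratio of 6.79 towards SSC PDGF- (exact 95% interval 1.48 to 63.1). FOXP2, of speech and lung development, had 10 against 27 (3.34, 1.56 to 7.72), SOX6, of cartilage and muscle, 21 against 45 (2.65, 1.54 to 4.68), and KLF1, of red blood cells, 6 against 14 (2.88, 1.04 to 9.15), all higher in SSC PDGF-. FOXA3, of liver, had 26 against 10 (2.105 towards SSC PDGF+, 0.982 to 4.89), and KLF14 had 8 in each group. FOXD3 and SOX21, of neural progenitors, had 5 counts, each in a single SSC PDGF- library. These intervals cover counting error only and have no replicate check.

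The difference between batches ran through the members in both groups. Across the 44 tested members, the log2 difference of batch 1 minus batch 2 went with the GC content of the transcript, with a Pearson's r of -0.74 among SSC PDGF+ libraries and of -0.73 among SSC PDGF- libraries. Across 11269 tested genes with a GC content, r was -0.71 and -0.70. These are correlations across genes of the same libraries, which are not independent replicates. The log2 fold change with PDGF itself had an r of 0.0051 with GC content over the members and -0.21 over all genes. The median GC content was 53.6% for the members and 49.2% for all genes tested. The sign of the PDGF difference was the same in both batches for 34 of the 44 and opposite for 10. All 12 called genes were among the 34, which follows from their groups not overlapping and is no separate check. The share over all genes tested was not worked out.

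**Figure D5:**
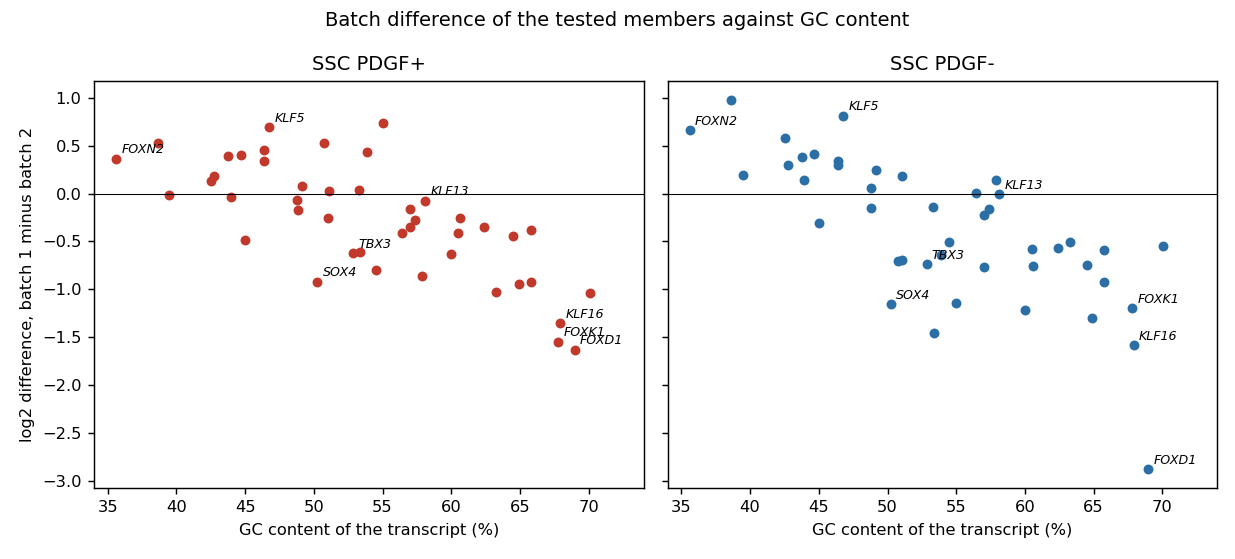
Log2 difference of batch 1 (replicate 1) minus batch 2 (replicates 2 and 3) of each tested member against the GC content of its transcript (%), in SSC PDGF+ (left) and SSC PDGF- (right). In both panels the points fall towards higher GC content (r of -0.74 and -0.73), with FOXN2 and KLF5 above 0 and FOXK1, KLF16 and FOXD1 well below 0.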

How the data were processed

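The authors deposited expected counts per gene, not normalised. Of 17795 genes, 3004 had no count and 13, no member among them, had a value that was not whole, so values were rounded. The plan had assumed whole counts. The submitters' processing notes name fastp, HISAT2 2.1.0, SAMtools, featureCounts 2.0.1, Mmul_10 and Mmul_8.0.1 without saying which build the counts used, so no coordinates are given, and strand settings are not given in the sources used here. Exon length, GC content and overlaps came from the RefSeq annotation of Mmul_10 and were matched by symbol for all 72 members.

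Libraries were grouped by their labels. The members, roles and gene lists were chosen with earlier results of these data known. SSC PDGF+ was compared with SSC PDGF- by edgeR 4.0.16 in R 4.3.3 (TMM, filterByExpr by group, quasi-likelihood test, Benjamini-Hochberg adjustment over all 11539 genes tested, threshold 0.05). Genes low in a group can pass this filter through the other group alone, and only a call towards that other group is then open to them. SOX30 and GATA3 did so, and the list genes that did so included DDX4, COL9A3, CDH1, TRIM63, COMP and KRT7. Standard errors were derived from the log2 fold change and its F statistic. CPM uses TMM library sizes, and RPKM is CPM per kilobase of exon. Log2 differences within a batch add 0.5 counts. Members called at the threshold were named, and beside them SOX9, SOX8, GATA1, GATA4, GATA6, SOX3, SOX30, FOXJ1, FOXR1, KLF17, FOXO1, FOXO3, FOXO4, FOXM1, KLF4 and KLF5. Other genes were named after their values were seen.

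The replicate numbers follow the labelled batches. Deviations from the group means correlated between same-numbered libraries at 0.73, 0.35 and 0.37 over all genes. Libraries with different numbers were not compared. These values therefore cannot tell a pairing of replicates 2 and 3 from the batch difference that both groups share. Alternatives were other normalisations and filters, DESeq2 1.42.0, limma-voom (limma 3.58.1), the replicate block, batch as a term, the block combined with correction of GC content and length, batch 2 only, replicates 2 and 3 summed, each library left out and a log2 fold change of at least 1. On simulated data of this comparison (11415 genes, 200 changed), edgeR recovered 41.1% of changes of 1 and 96.3% of changes of 2 on the log2 scale, with 6 false calls. The simulated counts held no difference between batches or with GC content, and fewer changed genes than the 2108 called here. These figures therefore need not hold for the real libraries.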

Additional observations from a re-analysis of the deposited data

How the results depend on the processing

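The counts of members called (4 higher, 8 lower) moved by more than 1.5 times under these alternatives, and the cause was not tested. They were 12 and 14 with the replicate block, with batch as a term and with batch 2 libraries only, 13 and 13 with the block and the GC content and length correction, and 2 and 3 with replicates 2 and 3 summed. Beside the changes given in the text, the block changed no member's call, and with the correction KLF13 (0.14, adjusted p = 0.011) and FOXJ3 (-0.34, adjusted p = 0.00035) were called. With replicates 2 and 3 summed, TBX3, KLF7, FOXO1, KLF11 and SOX30 kept their calls, no member called only with the block was called, and 13 of 29 called genes of the lists kept theirs. FOXP1 was not called without a count filter or without normalisation factors, nor SOX13 with at least 10 counts in every library or in limma-voom. At least 10 counts in every library left 5 lower, with 40 members tested and SOX30 and GATA3 no longer among them. Leaving out 1 library gave 2 to 8 higher and 4 to 10 lower. DESeq2 called 6 and 9, beside 2725 of all 11539 genes in either direction, and limma-voom 5 and 7, beside 2078. Shares over all genes were not worked out for the other alternatives, the replicate block excepted.

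No called member changed sign. Of 788 values of a gene under an alternative, 654 kept direction and side of the threshold, 71 gained a call, 35 lost it and 28 changed sign, in 14 genes not called. With the block and GC correction FOXF2 was at 0.11, FOXN3 -0.062, SOX5 -0.024 and TBX2 0.038. With upper quartile scaling FOXM1 was at -0.045, GATA6 -0.019 and KLF13 -0.028. GATA6 was at -0.028 in limma-voom and -0.058 with replicates summed, FOXM1 at -0.012 with at least 10 counts, and FOXP3 at -0.21 in batch 2. Over single libraries left out, FOXA2 ran from -0.73 to 0.21, FOXD1 from -0.14 to 1.40, FOXF2 from -0.33 to 0.18, FOXK1 from -0.69 to 0.00093, FOXM1 from -0.061 to 0.14, FOXN3 from -0.049 to 0.29, GATA4 from -0.053 to 0.28, GATA6 from -0.25 to 0.31, KLF3 from -0.094 to 0.031, KLF4 from -0.057 to 0.25 and SOX5 from -0.14 to 0.53. Of the 28 members kept out of the test by the filter, 12 had no count, where the depth sets only an upper limit.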
